A study of Mus musculus with 15 samples.

Results

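The genes described here carry glucose into the red cell and through glycolysis: the transporter Slc2a1, the hexokinases Hk1 and Hk2, the phosphofructokinase subunits Pfkl and Pfkm, the pyruvate kinases Pkm and Pklr, and Ldha, Bpgm and G6pdx. These 10 genes were chosen by name from the 55487 mouse genes of the deposited count tables, and all 10 were found and passed the filter on low counts in every comparison. A maturing red cell loses its mitochondria and comes to depend on glycolysis for its ATP. Several steps of the pathway have more than one gene, and red cells and their precursors are known for the use of particular forms, such as the R-type pyruvate kinase made from Pklr. A side branch through Bpgm makes 2,3-bisphosphoglycerate (2,3-BPG), which lowers the affinity of haemoglobin for oxygen, and another branch that begins with G6pdx makes the NADPH that protects the cell from oxidants.

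The libraries hold RNA of fetal liver erythroid progenitors of E12.5 mouse embryos of strain 129S6/SvEvTac, either wildtype or mutant for Rpl5, a protein of the large ribosomal subunit. Group 1 of mice held 3 wildtype and 3 mutant libraries, labelled polyA RNA. Group 2 held 3 wildtype, 3 mutant and 3 low-yield mutant libraries, labelled total RNA; the labels do not define low-yield. The sample sheet deposited with group 2 names the allele of both kinds of mutant as Rpl5plusSkax23Jus, and for group 1 the labels say only that Rpl5 is mutant. No source used here states a treatment, pooling of embryos or whether replicates came from separate embryos, so the p-values measure the spread between these libraries, which may be technical.

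Total counts ran from 48510828 to 58513669 per library in group 1 and from 24954324 to 44827821 in group 2, and the smallest count of any of the 10 genes in any library was 859. Levels are given as CPM, which are counts relative to the scaled library total, and were compared only within a group of mice, since the groups differ in RNA kind. Rpl5 was lower in all 9 mutant libraries than in any wildtype library of its own group (656, 668 and 744 CPM in wildtype against 520, 561 and 570 in mutants of group 1). The erythroid label was met by the defining genes: 10 erythroid markers summed to between 2364 and 6995 CPM in each library, while 11 hepatocyte markers summed to at most 72.9 CPM. The hepatocyte sums of group 1 did not overlap, at 30.1 to 56.2 CPM in wildtype and 5.65 to 17.9 CPM in mutants, with 3 of 9 markers tested called lower there, Alb among them at -2.29 ± 0.38 (adjusted p = 0.0108). Over both groups none of the 9 passed (unadjusted p under 0.05 in 3), and in group 2 the hepatocyte sums overlapped. The 8 macrophage markers summed to at most 6.98 CPM in wildtype libraries and at most 12.495 CPM in mutant ones, and 1 of 4 tested, Vcam1, was higher over both groups, at 1.14 ± 0.40 (adjusted p = 0.0487). The 6 megakaryocyte markers summed to 11.2 to 14.1 CPM in wildtype of group 2, 19.4 to 20.5 CPM in mutants and 29.8 to 38.6 CPM in low-yield mutants, while those sums overlapped in group 1. The erythroid sum was 3597 to 4693 CPM in wildtype and 2364 to 2438 CPM in mutants of group 1. The wildtype sum in group 2 was 4083 to 6995 CPM, against 3007 to 3487 CPM in mutants and 2711 to 3523 CPM in low-yield mutants. The 9 granulocyte markers summed to 17.5 to 35.2 CPM in wildtype of group 2, 135 to 226 CPM in mutants and 171 to 376 CPM in low-yield mutants. In group 1 those sums overlapped, at 84.1 to 653 CPM in wildtype and 236 to 1248 CPM in mutants. Since these are bulk libraries, fewer cells of a type and less RNA per cell cannot be told apart.

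The stretches before the annotated starts of 4 of the genes whose levels moved between the genotypes are shown, because each holds letters known from red cell or hypoxia regulation or, for the downstream start of Pklr, lacks them. They are RefSeq promoter windows of GRCm38.p6, 5′ to 3′ on the strand of the gene, shown up to about the start of the first exon that follows. The Slc2a1 stretch runs into the first GENCODE exon by its last bases, which are part of the marked letters, and the Ldha stretch lies in an intron of a longer GENCODE transcript that begins further upstream. Capitals mark a GATA-type motif, AGATAA, in Pklr. In the others they mark the core of a hypoxia response element, ACGTG, read on either strand. Where such matches overlap on both strands they form an E-box, which is in capitals as a whole.
Pklr, upstream start (chr3:89135892-89136141, plus strand): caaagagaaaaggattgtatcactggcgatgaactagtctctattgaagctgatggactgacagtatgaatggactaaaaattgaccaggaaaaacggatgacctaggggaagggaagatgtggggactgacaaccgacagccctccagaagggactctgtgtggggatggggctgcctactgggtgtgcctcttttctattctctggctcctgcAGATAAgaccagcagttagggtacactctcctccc
Pklr, downstream start (chr3:89136373-89136571, plus strand): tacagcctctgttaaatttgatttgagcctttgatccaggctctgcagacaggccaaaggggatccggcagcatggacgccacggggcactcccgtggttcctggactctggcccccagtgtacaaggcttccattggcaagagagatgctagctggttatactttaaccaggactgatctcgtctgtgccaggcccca
Slc2a1 (chr4:119108495-119108713, plus strand): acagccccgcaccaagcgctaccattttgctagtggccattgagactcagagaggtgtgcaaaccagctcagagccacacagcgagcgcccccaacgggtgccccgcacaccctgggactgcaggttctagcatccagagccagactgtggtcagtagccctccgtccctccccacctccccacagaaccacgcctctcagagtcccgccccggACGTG
Hk2 (chr6:82774455-82774704, minus strand): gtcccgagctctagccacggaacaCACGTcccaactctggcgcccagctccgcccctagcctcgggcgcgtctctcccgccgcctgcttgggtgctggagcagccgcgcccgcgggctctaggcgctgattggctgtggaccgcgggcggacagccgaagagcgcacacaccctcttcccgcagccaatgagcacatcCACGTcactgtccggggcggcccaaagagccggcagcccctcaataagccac
Ldha, first listed start (chr7:46845554-46845803, plus strand): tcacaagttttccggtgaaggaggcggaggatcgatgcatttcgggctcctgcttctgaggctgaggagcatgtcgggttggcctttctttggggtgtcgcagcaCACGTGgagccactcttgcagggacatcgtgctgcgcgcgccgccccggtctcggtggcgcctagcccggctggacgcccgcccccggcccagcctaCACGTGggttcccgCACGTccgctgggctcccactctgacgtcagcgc

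The upstream start of Pklr, which is the one known to be used in erythroid cells, has the GATA-type motif 35 bases before the start. The downstream start, known from liver, has no match to any of the 5 motifs that were searched on both strands. The windows searched are 300 bases long, and the 10 genes have 17 of them. The motif AGATAA was present in 4 of these, against 11.2% of all 32851 windows. The 4 windows belong to 2 genes, 1 to Pklr and 3 to Pfkm, and 2 of those of Pfkm overlap and share a match. Its variant TGATAA was present in 2 of the 17 (9.05% of all windows). The erythroid factor motif CCACACCC, which KLF1 is known to bind, was present in 2 (3.56%). The hypoxia core ACGTG was present in 8 (19.6%). The E-box CACGTG, which always contains the hypoxia core, was present in 2 (7.15%). Ldha had 5 matches to the hypoxia core before its first listed start, with each of its 2 E-boxes counted on both strands. Hk2 had 2 and Slc2a1 had 1, none of them in an E-box. The core was also found in windows of Pfkm and Pkm and in those of Hk1 and G6pdx, which did not pass the test. A match describes these letters only, and binding was not measured here.

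Over both groups of mice, 7 of the 10 genes differed between mutant and wildtype, with the 2 pyruvate kinase genes changed in opposite directions. Slc2a1, Pfkl, Pfkm and Pklr fell by 0.55, 0.21, 0.35 and 0.49 on the log2 scale, while Hk2, Pkm and Ldha rose by 0.80, 0.86 and 0.38. Hk1, Bpgm and G6pdx did not pass the test. The test was edgeR's quasi-likelihood test on 6 mutant and 6 wildtype libraries that took the group of mice into account as a block. It was adjusted over 15954 genes, of which 9.8% were called higher and 9.8% lower. The median log2 difference of the 10 genes was -0.06 and that of all genes was -0.00.

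**Figure D1:**
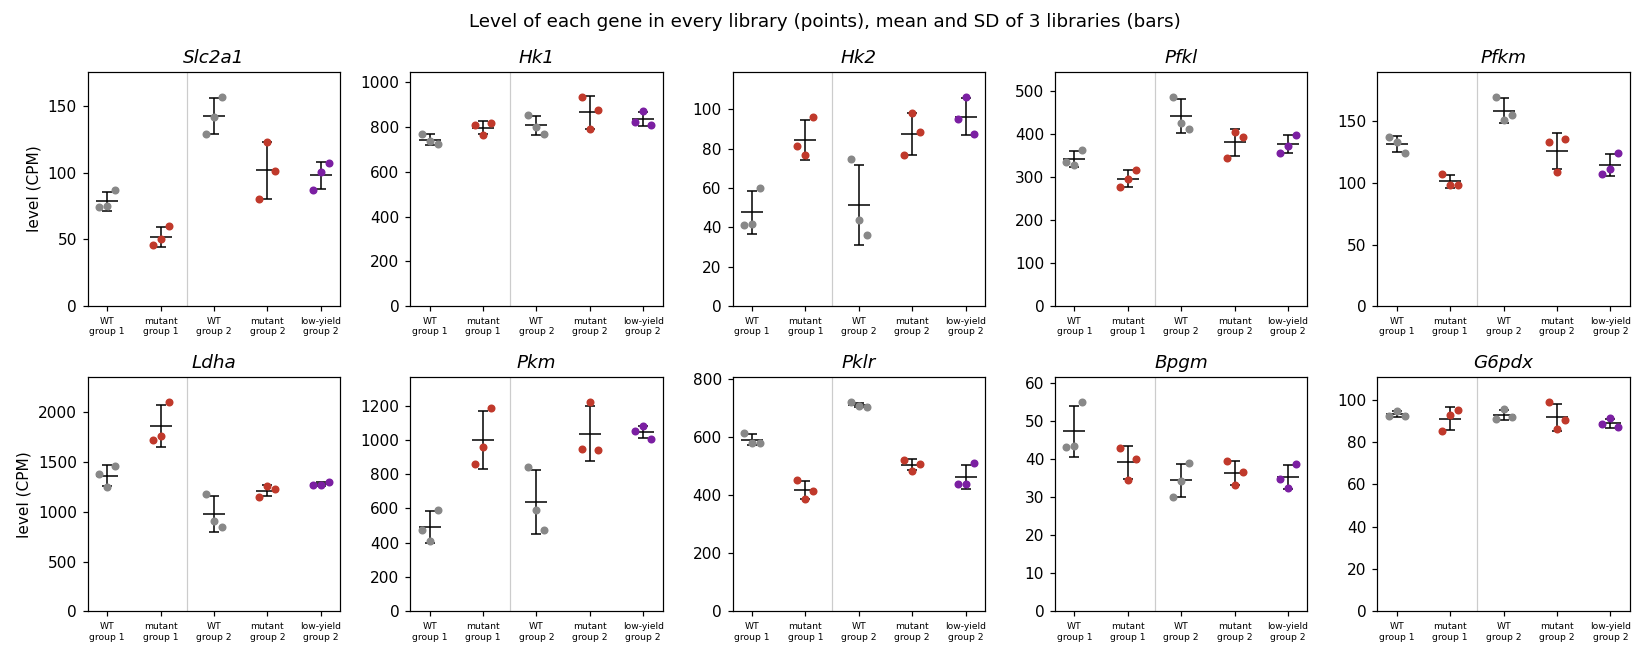
Level of each gene in CPM (vertical axis, from 0) in every library (points), with the mean and SD of 3 libraries (bars) for the 5 groups; grey is wildtype, red mutant and purple low-yield mutant, and the thin line parts group 1 from group 2 of mice. Pklr is lower in every mutant library than in any wildtype library of its group, Pkm is higher, and G6pdx lies between 85.3 and 98.9 CPM throughout.

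Uptake of glucose, which was not measured here, is the role of Slc2a1 (ENSMUSG00000028645, chr4:119108711-119137983, plus strand, GRCm38), the transporter GLUT1. It stood at 74.3, 74.8 and 87.0 CPM in wildtype of group 1 and at 45.6, 50.0 and 59.8 CPM in the mutants. The group 2 libraries stood at 129, 141 and 157 CPM in wildtype, at 80.4, 123 and 102 CPM in mutants and at 87.0, 100.3 and 107 CPM in low-yield mutants. All mutant libraries lay below all wildtype libraries of their group. The log2 difference was -0.60 ± 0.10 (SE, adjusted p = 0.0041) in group 1, -0.49 ± 0.13 (adjusted p = 0.047) in group 2 and -0.54 ± 0.13 (adjusted p = 0.0181) for the low-yield mutants. The call in mutants of group 2 was lost when wildtype replicate 2 or 3 or mutant replicate 1 or 3 was left out, with adjusted p from 0.122 to 0.16. For low-yield mutants it was lost without wildtype replicate 2 or 3 or low-yield replicate 1 or 2, with adjusted p up to 0.082. It was also lost in mutants of group 2 with libraries scaled by their totals alone (adjusted p = 0.112), with a minimum mean of 5 CPM (0.0771), in the older quasi-likelihood mode (0.0532) and in a fit on the 6 compared libraries (0.0519), so that Slc2a1 was called there in 8 of 16 alternatives. By library totals the low-yield call was lost too (adjusted p = 0.0568).

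Of the other transporters listed, Slc2a4, the insulin-responsive GLUT4, fell by 1.69 ± 0.30 on the log2 scale over both groups (adjusted p = 0.000447) from a low level, at most 3.27 CPM in any library. Slc2a8, an intracellular glucose transporter, fell by 0.77 ± 0.12 (adjusted p = 0.000136). Slc2a3, the transporter GLUT3, rose by 0.20 ± 0.07 (adjusted p = 0.0449), from a mean of 59.4 CPM in wildtype to 68.3 CPM in mutants of group 1 and from 64.5 to 73.7 CPM in group 2. The list of 10 transport genes, which also holds lactate and pyruvate carriers, thus had 1 gene higher, 2 lower and 6 not passing among 9 tested, with a median log2 difference of -0.05.

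Hexokinases trap glucose in the cell as glucose 6-phosphate. Hk1 (ENSMUSG00000037012, chr10:62268855-62379908, minus strand), the form that predominates in red cells, ran from 722 to 770 CPM in wildtype and from 765 to 818 CPM in mutants of group 1. Its ranges in group 2 were 767 to 854 CPM in wildtype, 789 to 934 CPM in mutants and 809 to 869 CPM in low-yield mutants. Every pair of groups overlapped. The log2 difference over both groups was 0.10 ± 0.05 (95% interval -0.00 to 0.21, adjusted p = 0.206). Where libraries were scaled by their totals alone the adjusted p was 0.0435.

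Hk2 (ENSMUSG00000000628, chr6:82725025-82774454, minus strand), the inducible hexokinase, stood at 41.1, 41.6 and 60.2 CPM in wildtype of group 1 and at 81.1, 76.6 and 96.0 CPM in mutants. Group 2 gave 74.6, 43.8 and 36.3 CPM in wildtype, 76.7, 97.9 and 88.4 CPM in mutants and 95.1, 106 and 87.3 CPM in low-yield mutants. Mutant libraries lay above the wildtype ones in each group, although wildtype replicate 1 of group 2 came within 2.02 CPM of the lowest mutant. The log2 difference was 0.83 ± 0.17 (adjusted p = 0.027) in group 1. It was 0.77 ± 0.25 (adjusted p = 0.119) and 0.91 ± 0.25 (adjusted p = 0.0504) for mutants and low-yield mutants of group 2, where Hk2 did not pass. Without wildtype replicate 1 of group 2 these became 1.14 (adjusted p = 6.83e-05) and 1.27 (adjusted p = 1.47e-05). Among all fits there that left out 1 library, the lowest differences were 0.57 in mutants and 0.70 in low-yield mutants. The highest adjusted p values of those fits were 0.289 and 0.149. In group 1 the call was lost without wildtype replicate 1 or 2 or mutant replicate 1 or 3, with adjusted p from 0.0563 to 0.076, and with no filter on low counts (adjusted p = 0.05).

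Phosphofructokinase commits the sugar to glycolysis and is built in red cells from L and M subunits. Pfkl (ENSMUSG00000020277, chr10:77986947-78010083, minus strand), the L subunit, stood at 335, 329 and 364 CPM in wildtype and 277, 297 and 316 CPM in mutants of group 1. The levels in group 2 were 486, 426 and 412 CPM in wildtype, 345, 404 and 394 CPM in mutants and 357, 373 and 398 CPM in low-yield mutants. Mutant and wildtype libraries did not overlap, with a gap of 7.24 CPM at its narrowest. The log2 difference was -0.21 ± 0.07 (adjusted p = 0.065) in group 1, -0.21 ± 0.09 (adjusted p = 0.18) in mutants of group 2 and -0.23 ± 0.09 (adjusted p = 0.101) in low-yield mutants, none of which passed, and -0.21 ± 0.06 (adjusted p = 0.0108) over both groups. With the replicate number as a block, group 1 alone passed (adjusted p = 0.024), as it did with DESeq2 (0.0149) and with a minimum mean of 5 CPM (0.0471). Leaving out wildtype replicate 1 of group 2 gave -0.13 for its mutants and -0.15 for low-yield mutants, and leaving out mutant replicate 1 gave -0.14.

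Pfkm (ENSMUSG00000033065, chr15:98092589-98132451, plus strand), the M subunit, stood at 137, 133 and 124 CPM in wildtype of group 1 and 107, 98.5 and 98.1 CPM in mutants. In group 2 the wildtype libraries stood at 170, 151 and 155 CPM, the mutants at 133, 109 and 136 CPM and the low-yield mutants at 108, 111 and 124 CPM. No mutant library reached the wildtype range. Pfkm fell by 0.37 ± 0.07 on the log2 scale in group 1 (adjusted p = 0.00404) and by 0.47 ± 0.10 in low-yield mutants (adjusted p = 0.00492). In mutants of group 2 the difference of -0.33 ± 0.10 missed the threshold (adjusted p = 0.0524), and its adjusted p was 0.021 with a replicate block. A same-strand predicted gene, Gm26513, shares 341 bases of exon with Pfkm, and reads from there cannot be assigned with certainty.

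Another subunit gene, Pfkp, went the other way and rose by 0.53 ± 0.14 over both groups (adjusted p = 0.0195). It passed in group 1, at 0.59 ± 0.08 (adjusted p = 0.0011). In group 2 it did not, at 0.45 ± 0.24 in mutants (adjusted p = 0.339) and 0.61 ± 0.24 in low-yield mutants (adjusted p = 0.135). The wildtype range there, 26.2 to 55.0 CPM, overlapped those of mutants, 47.4 to 61.5 CPM, and low-yield mutants, 54.8 to 65.4 CPM. Pfkp is also the lowest of the 3 subunit genes in CPM, with means of 41.3 CPM in wildtype and 62.2 CPM in mutants of group 1. CPM takes no account of gene length, and Pfkp was not ranked per length here.

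**Figure D2:**
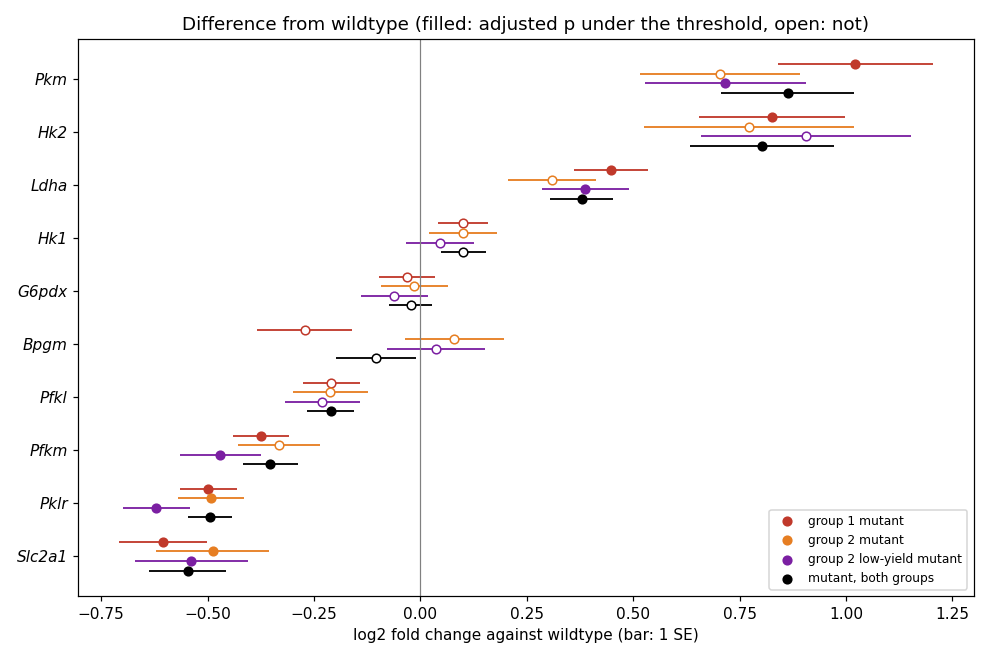
Log2 fold change against wildtype (horizontal axis, bars 1 SE) of the 10 genes for mutants of group 1, mutants and low-yield mutants of group 2, and mutants over both groups; filled points passed the adjusted threshold and open ones did not. Pkm, Hk2 and Ldha lie to the right and Slc2a1, Pklr, Pfkm and Pfkl to the left in each of the 4 comparisons, and Bpgm lies left in group 1 and right in group 2.

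Pyruvate kinase makes pyruvate and ATP in the last step. Pkm (ENSMUSG00000032294, chr9:59656368-59679375, plus strand), which gives the M1 and M2 forms and predominates in early and dividing cells, stood at 474, 411 and 594 CPM in wildtype of group 1 and at 858, 956 and 1188 CPM in mutants. For group 2 the levels were 843, 589 and 477 CPM in wildtype, 949, 1219 and 939 CPM in mutants and 1051, 1078 and 1006 CPM in low-yield mutants. Wildtype libraries lay below mutant ones in each group, with replicate 1 again the highest wildtype library of group 2. The log2 difference of 1.02 ± 0.18 in group 1 (adjusted p = 0.0221) and that of 0.72 ± 0.19 in low-yield mutants (adjusted p = 0.0381) passed. In mutants of group 2 the difference of 0.70 ± 0.19 did not (adjusted p = 0.0627), and without wildtype replicate 1 it was 0.97 (adjusted p = 0.000238). Other fits of these mutants that left out 1 library went down to 0.53, with adjusted p up to 0.189.

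Calls for Pkm within single groups depended on the filter and on single libraries. With no filter on low counts the adjusted p was 0.0652 in group 1 and 0.124 in low-yield mutants, and a fit of low-yield mutants and wildtype alone gave 0.0527. The call in group 1 was lost without wildtype replicate 1 or mutant replicate 2 (adjusted p = 0.0739 and 0.0724), and that in low-yield mutants was lost without wildtype replicate 2 or any low-yield replicate (adjusted p from 0.0527 to 0.125). Over both groups Pkm passed in all 12 fits that left out a library. Counts per gene do not separate the M1 and M2 forms. The 8 processed pseudogenes found by similarity to Pkm held 0.202% of the counts of Pkm and its copies together, and a same-strand predicted gene, Gm49759, shares 767 bases of its exons.

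Pklr (ENSMUSG00000041237, chr3:89136142-89146784, plus strand), the gene of the R and L forms, stood at 615, 580 and 581 CPM in wildtype of group 1 and at 453, 389 and 416 CPM in mutants. Levels of 721, 709 and 705 CPM were found in wildtype of group 2, 524, 485 and 509 CPM in mutants and 439, 439 and 510 CPM in low-yield mutants. The wildtype libraries were close together and every mutant library lay below the lowest of them, by 128 CPM at the narrowest gap. Pklr fell by 0.50 ± 0.07 on the log2 scale in group 1 (adjusted p = 0.000906), 0.49 ± 0.08 in mutants of group 2 (adjusted p = 0.00232) and 0.62 ± 0.08 in low-yield mutants (adjusted p = 0.000231).

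Pklr kept its direction and its call in each of these comparisons with every library left out in turn, and it had the smallest p of the 10 genes over both groups (adjusted p = 2.04e-06). Exons of Hcn3 on the opposite strand overlap 711 bases of Pklr, so some reads could belong to either gene. Pklr is also a gene of hepatocytes, whose markers Alb, Apob and Serpina1a were lower in mutants of group 1 too, at -2.29, -2.05 and -2.56 (adjusted p = 0.0108, 0.0291 and 0.0453), and did not pass in the other comparisons. Afp reached 31.8 CPM, Alb 23.3 CPM and the hepatocyte transporter Slc2a2 0.647 CPM in the highest library. Their part in the level of Pklr was not tested.

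The ratio of Pkm to Pklr in a library does not depend on how the libraries are scaled. On the log2 scale it was -0.38, -0.50 and 0.03 in wildtype of group 1 and 0.92, 1.299 and 1.51 in mutants. Group 2 had ratios of 0.22, -0.27 and -0.56 in wildtype, 0.86, 1.33 and 0.88 in mutants and 1.26, 1.295 and 0.98 in low-yield mutants. Wildtype libraries thus lay near or below equal CPM and all 9 mutant libraries lay above it, with no overlap. Mutants exceeded wildtype by 1.53 in group 1 and 1.23 in group 2, or 1.38 over both (exact permutation test within each group of mice, two-sided, p = 0.005, the smallest that 400 arrangements can give; adjusted p = 0.015 over 3 ratios; higher in 6 of 6 mutant libraries). The low-yield mutants exceeded the wildtype libraries of group 2, which serve both comparisons, by 1.38.

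Hk2 relative to Hk1 was also higher in mutants. The log2 ratio averaged -3.99 ± 0.35 (SD, n = 3) in wildtype and -3.24 ± 0.13 in mutants of group 1. The mean in group 2 was -4.04 ± 0.46 in wildtype, -3.31 ± 0.30 in mutants and -3.12 ± 0.09 in low-yield mutants. Wildtype replicate 1 of group 2, at -3.52, lay above mutant replicate 1, at -3.61, and the groups otherwise did not overlap. The difference over both groups was 0.74 (exact permutation test, two-sided, p = 0.01, adjusted p = 0.015). The ratio of Pfkl to Pfkm differed by 0.15 and did not pass (exact permutation test, two-sided, p = 0.155, adjusted p = 0.155).

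**Figure D3:**
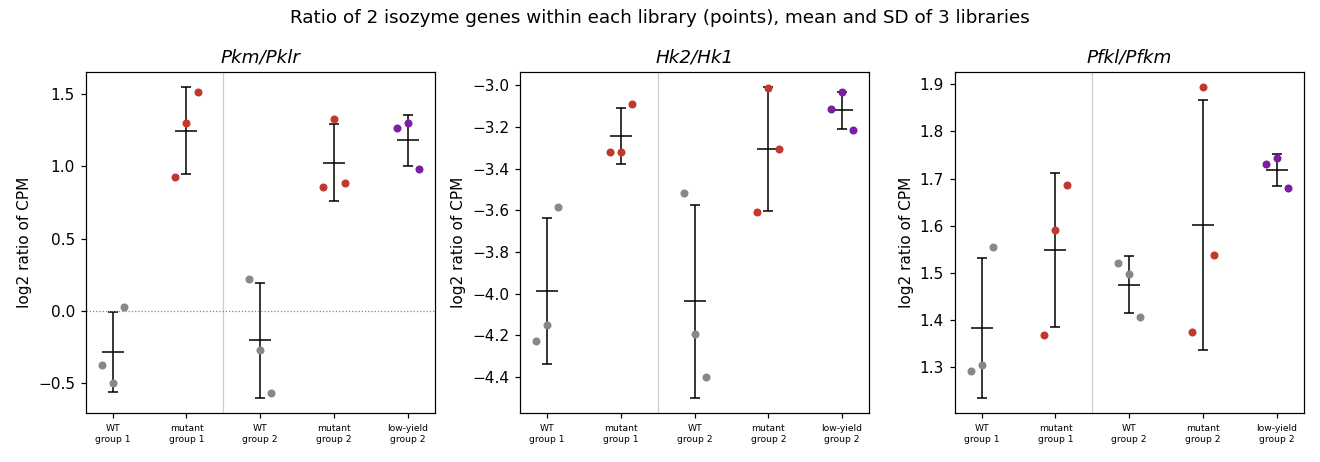
Log2 ratio of the CPM of 2 isozyme genes within each library (points), with the mean and SD of 3 libraries, for Pkm over Pklr, Hk2 over Hk1 and Pfkl over Pfkm in the 5 groups; the dotted line marks equal CPM, and each panel has its own axis, which does not start at 0. The Pkm to Pklr ratio is 0.86 or more in every mutant library and 0.22 or less in every wildtype library.

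Ldha (ENSMUSG00000063229, chr7:46841475-46855627, plus strand) encodes the lactate dehydrogenase subunit that regenerates NAD+ for glycolysis. It stood at 1381, 1248 and 1453 CPM in wildtype of group 1 and at 1717, 1754 and 2097 CPM in mutants. The libraries of group 2 had 1177, 905 and 848 CPM in wildtype, 1148, 1260 and 1222 CPM in mutants and 1264, 1268 and 1301 CPM in low-yield mutants. Only mutants of group 2 overlapped the wildtype range, through wildtype replicate 1 and mutant replicate 1.

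Ldha rose by 0.45 ± 0.09 on the log2 scale in group 1 (adjusted p = 0.00711) and by 0.39 ± 0.10 in low-yield mutants (adjusted p = 0.0222), whereas 0.31 ± 0.10 in mutants of group 2 did not pass (adjusted p = 0.091). Without wildtype replicate 1 of group 2 the difference there was 0.47 (adjusted p = 0.00191). Other fits of these mutants that left out 1 library went down to 0.22, with adjusted p up to 0.305. The call in low-yield mutants was lost on leaving out wildtype replicate 2 or 3 or any low-yield replicate, with adjusted p from 0.0536 to 0.112. The 13 processed pseudogenes like Ldha held 0.0437% of the joint counts.

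Wildtype replicate 1 of group 2 was the highest wildtype library of its group for 7 of the 10 genes, namely Hk1, Hk2, Pkm and Ldha and also Pfkl, Pfkm and Pklr, which fell in mutants. It also had the lowest erythroid marker sum of the 3, at 4083 CPM against 5741 and 6995 CPM, and the highest sum of the 6 early progenitor markers, at 584 CPM against 503 and 433 CPM. In group 1 wildtype replicate 3 was the highest for Hk2, Pkm, Ldha, Pfkl, Slc2a1 and Bpgm, with an early progenitor sum of 630 CPM against 487 and 538 CPM and an erythroid sum of 4693 CPM, the highest of its group. The part of these marker differences in the levels of the glycolysis genes was not tested.

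Bpgm (ENSMUSG00000038871, chr6:34476207-34505613, plus strand), the synthase of 2,3-BPG, was among the lowest of the 10 genes. It stood at 43.2, 43.5 and 54.9 CPM in wildtype of group 1 and at 42.9, 34.4 and 40.0 CPM in mutants, just below the wildtype range. Its range in group 2 was 30.0 to 38.9 CPM in wildtype, 33.2 to 39.4 CPM in mutants and 32.5 to 38.6 CPM in low-yield mutants, which overlap. The log2 difference was -0.27 ± 0.11 in group 1 (adjusted p = 0.143, and 0.0365 with the replicate number as a block), 0.08 ± 0.12 in mutants of group 2 (adjusted p = 0.764) and 0.04 ± 0.12 in low-yield mutants (adjusted p = 0.886). In group 1 leaving out 1 library gave -0.34 to -0.15 (adjusted p from 0.0842 to 0.392), with -0.15 on leaving out wildtype replicate 3. The same fits for mutants of group 2 gave 0.0019 to 0.18 (adjusted p from 0.483 to 0.995). Over both groups the 95% interval was -0.29 to 0.08. The difference between the groups of mice, tested as the interaction, was 0.37 ± 0.17 and did not pass (unadjusted p = 0.0503, adjusted p = 1).

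Minpp1, an enzyme that removes a phosphate from 2,3-BPG and other substrates, was lower in all mutants. It averaged 308 ± 3.71 CPM (SD, n = 3) in wildtype and 241 ± 7.05 CPM in mutants of group 1. The means in group 2 were 402 ± 29.4 CPM in wildtype, 317 ± 25.2 CPM in mutants and 271 ± 30.4 CPM in low-yield mutants. Minpp1 fell by 0.35 ± 0.06 on the log2 scale in group 1 (adjusted p = 0.00218), 0.34 ± 0.09 in mutants of group 2 (adjusted p = 0.0451) and 0.57 ± 0.09 in low-yield mutants (adjusted p = 0.00137).

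G6pdx (ENSMUSG00000031400, chrX:74409483-74429194, minus strand), the first enzyme of the pentose phosphate branch, was the steadiest of the 10 genes. It ran from 92.3 to 94.8 CPM in wildtype and from 85.3 to 95.3 CPM in mutants of group 1, and from 86.4 to 98.9 CPM over the 9 libraries of group 2. All groups overlapped. Exons of Ikbkg on the opposite strand cover 418 bases of G6pdx. The log2 difference over both groups was -0.02 ± 0.05 (95% interval -0.12 to 0.08, adjusted p = 0.802). Of 7 other genes of the branch, 3 fell over both groups and 4 did not pass: Tkt, a transketolase, by 0.18 ± 0.05 (adjusted p = 0.0228), Pgls, the lactonase after G6pdx, by 0.20 ± 0.07 (adjusted p = 0.0401), and Taldo1, a transaldolase, by 0.15 ± 0.05 (adjusted p = 0.0454).

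The remaining glycolysis genes were drawn from a list of 16, of which 14 were tested over both groups. In that fit 4 were higher, 1 was lower and 9 did not pass, and the median log2 difference was 0.28 against -0.00 for all genes. Gapdh, the glyceraldehyde 3-phosphate dehydrogenase, rose by 0.32 ± 0.06 (adjusted p = 0.000653) and Pgk1, which makes the first ATP of the pathway, by 0.43 ± 0.13 (adjusted p = 0.0355). Adpgk, which phosphorylates glucose with ADP, fell by 0.24 ± 0.06 (adjusted p = 0.0131).

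Regulators of the pathway and of pyruvate entry into mitochondria formed a list of 19, with 18 tested, 5 higher, 2 lower and 11 not passing. Pfkfb3, which makes the allosteric activator of phosphofructokinase, rose by 0.78 ± 0.17 (adjusted p = 0.00325) and was called in group 1 and in low-yield mutants as well. The hypoxia-inducible factor subunit Hif1a rose by 0.28 ± 0.06 (adjusted p = 0.00338). Pdha1, a subunit of pyruvate dehydrogenase, rose by 0.26 ± 0.06 (adjusted p = 0.00374), and Pdk1, a kinase that inhibits this enzyme, fell by 0.26 ± 0.06 (adjusted p = 0.00685).

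**Figure D4:**
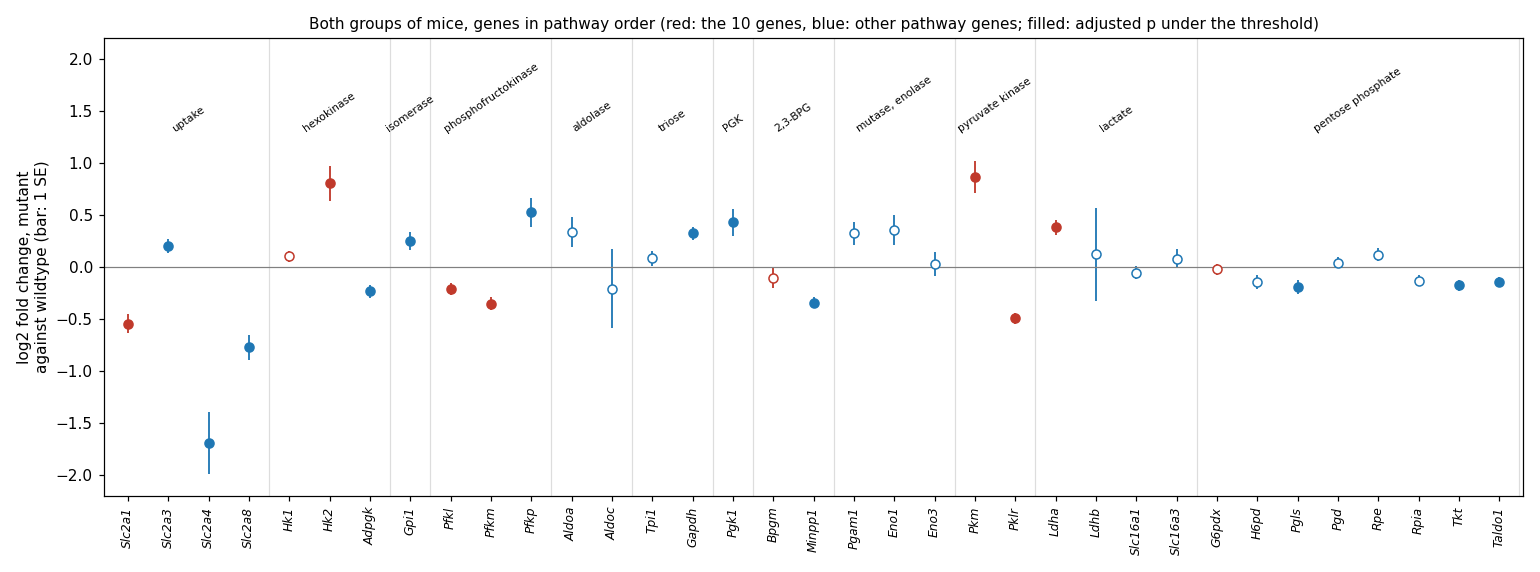
Log2 fold change of mutant against wildtype over both groups of mice (vertical axis, bars 1 SE) for genes in the order of the pathway, with the 10 genes in red and other tested genes of uptake, glycolysis, lactate handling and the pentose phosphate branch in blue; filled points passed the adjusted threshold. Within the phosphofructokinase and pyruvate kinase steps genes lie on both sides of 0, while Hk1 and Hk2 lie above it and Adpgk, drawn in the same step, below.

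By comparison, the 10 genes were called as follows. In group 1, 3 were higher among mutants (5.79% of all genes tested) and 3 were lower (6.78%), and 8 of 10 did not overlap between genotypes, against 31.6% of all genes. With the replicate number as a block the calls among all genes rose from 1766 to 2863 and those among the 10 genes from 6 to 8. In mutants of group 2, 2 were lower (2.95% of all genes) and none was higher (3.32%), and 6 did not overlap (23.2%). An unadjusted p under 0.05 was reached by 7 of the 10 there, and by 3071 of all 15024 genes. In low-yield mutants 2 were higher (6.68%) and 3 lower (5.86%), and 7 did not overlap (29.9%). Mutants and low-yield mutants of group 2 were set against the same wildtype libraries, so these counts are not independent.

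Between low-yield and other mutants of group 2, none of the 10 genes was called (0% of all 15024 genes in either direction; none of the 10 reached an unadjusted p under 0.05, and DESeq2 and limma called none of them either). Log2 differences ran from -0.14 ± 0.10 for Pfkm to 0.13 ± 0.24 for Hk2. On leaving out 1 library the lowest of the 10 ran from -0.23 to -0.09 and the highest from 0.05 to 0.22. Ldha alone did not overlap, with the lowest low-yield library 3.69 CPM above the highest of the other mutants (8.21% of all genes did not overlap). The interval for Pkm, -0.35 to 0.38, and that for Hk2, -0.34 to 0.61, leave room for differences of that size.

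The effect of the genotype was also set between the groups of mice. None of the 10 genes was called by the interaction test (0% of all 15954 genes were called higher and 0.0188% lower), and none reached an unadjusted p under 0.05. Apart from Bpgm the largest difference was that of Pkm, at -0.30 ± 0.31 (95% interval -0.90 to 0.30). On leaving out 1 library the lowest value of the 10 genes ran from -0.51 to -0.08 and the highest from 0.26 to 0.44.

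Ranked by CPM per kilobase of merged exons, Ldha stood first in each group, at 411 ± 31.4 (SD, n = 3) in wildtype of group 1 and 295 ± 53.0 in wildtype of group 2. Pklr came next and Pkm after it in wildtype of both groups, with 183 ± 6.03 against 98.5 ± 18.6 CPM per kilobase in group 1 and 220 ± 2.65 against 127 ± 37.4 in group 2. In mutants their order was reversed, with Pkm at 200 ± 33.9 and Pklr at 130 ± 9.92 in group 1 and at 207 ± 31.8 and 156 ± 5.96 in group 2. Hk1, Pfkl and Pfkm followed in each group by merged exons. G6pdx, Slc2a1, Hk2 and Bpgm took the last places, and neighbours whose libraries overlapped were Pkm and Hk1 in both wildtype groups, Pfkm and G6pdx and Slc2a1 and Hk2 in mutants of group 1, Hk2 and Bpgm in wildtype of group 2, and G6pdx and Slc2a1 in both kinds of mutant of group 2. Against the longest coding transcript in place of merged exons, Pkm and Pklr were level in wildtype of group 1, at 203 and 204 CPM per kilobase, and Pkm was ahead in wildtype of group 2, at 262 against 245, so the order of this pair in wildtype rests on the length used. By that length Hk1 stood above Pklr in all 3 mutant groups, at 186 against 144 CPM per kilobase in group 1, 202 against 174 in mutants of group 2 and 195 against 160 in low-yield mutants, and Bpgm stood above Hk2 in mutants of both groups and above Slc2a1 in those of group 1.

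Pklr had the smallest p over both groups, and the genes whose log2 CPM followed it most closely over the 15 libraries, centred within each group of mice, were Alad (r = 0.99), Epor, Lig1, Add2 and Septin4 (r = 0.98 each), out of 9010 genes. These r values describe libraries that share the split between genotypes. Epor is also one of the erythroid markers, of which 7 of 10 were lower and none higher over both groups, 2 lower and 1 higher in mutants of group 2, and 4 lower and 1 higher in low-yield mutants. The higher one was the embryonic globin Hbb-bh1, at 0.83 ± 0.18 (adjusted p = 0.0209) and 1.68 ± 0.18 (adjusted p = 0.000193). Over both groups Klf1, an erythroid transcription factor, was at -0.50 ± 0.05 (adjusted p = 2.48e-06), and Gata1 did not pass, at 0.10 ± 0.05 (adjusted p = 0.208). Of the 6 early progenitor markers 3 were higher, Kit among them at 0.38 ± 0.07 (adjusted p = 0.000383), and none was lower. The granulocyte list had none called of 9 over both groups, 5 of 8 higher in mutants of group 2 and 8 of 8 in low-yield mutants. The megakaryocyte list had 1 of 6 higher over both groups, 1 of 5 in mutants of group 2 and 3 of 5 in low-yield mutants. Hk3, the hexokinase of myeloid cells, was at most 3.16 CPM in any library. The part of these lists in the levels of the 10 genes was not tested.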

How the data were processed

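Per the submitters' processing notes, cutadapt 2.3, FastQC 0.11.8, STAR 2.7.8a, RSEM 1.3.3 and MultiQC 1.7 were used with build GRCm38, in no stated role or order; the annotation release and strand setting are not given in the sources used here. RNA was extracted with RNeasy Micro and read as 151 bp pairs, per the labels' protocols. The authors deposited expected counts (estimated reads of each gene), without normalisation; all were whole numbers already. Reporter rows (5 counts in all) were left out, and 0 value columns were unused.

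The main test was that of edgeR 4.0.16 under R 4.3.3 (TMM scaling, filterByExpr with a minimum count of 10, robust quasi-likelihood fit with adjusted deviances, two-sided, Benjamini-Hochberg over all genes tested, threshold 0.05). Group 1 (6 libraries), group 2 (9 libraries in 1 fit) and both groups (12 libraries, group of mice as a block) were fitted separately, and the interaction on the 12. The quasi-likelihood mode was not specified in the test plan; the older mode was run as an alternative, with DESeq2 1.42.0, limma 3.58.1 voom and other filters and scalings. Isozyme ratios were tested by exact permutation within each group of mice. The tests were tested on simulated data: over both groups 82.1% of genes changed 2-fold were recovered, and 34.3% of those changed 1.5-fold. The shares were 55.2% and 8.96% in group 1, 53.7% and 13.4% in mutants of group 2, and 7.46% and 0% for the interaction. Calls of unchanged genes were 7 of 148 over both groups, 10 of 117 in group 1, 4 of 115 in mutants of group 2 and 6 of 57 for the interaction. The simulation gave every gene the same spread between libraries. These shares and counts therefore do not give the chance of a call for the 10 genes.

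The 10 genes, the gene lists and the rule for other names were chosen with earlier results of these data known. Other genes are named if called in 2 of the 3 comparisons with wildtype or over both groups, up to 4 per list by smallest p; markers are named beside the results they touch. Coordinates are those of a GENCODE annotation of GRCm38, and promoters those of RefSeq on GRCm38.p6, where all 10 genes matched. Same-numbered libraries were compared by the correlation of their deviations from the group mean. In group 1 the correlations were 0.58, 0.15 and 0.35. Wildtype replicate 3 there matched mutant replicate 2 best, and mutant replicate 2 matched wildtype replicate 3 best. In group 2 the correlations were 0.36, 0.27 and 0.03 for wildtype and mutant. The main tests took no pairing into account. No pair of replicates agreed within sampling noise. Precision is limited by 3 libraries per group. The 95% intervals take the SE with a normal distribution and are narrower than the quasi-likelihood test implies. For the interaction of Bpgm this gave 0.02 to 0.71, beside an unadjusted p of 0.0503 by the quasi-likelihood test.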

Additional observations from a re-analysis of the deposited data

How the results depend on the processing

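Of 791 log2 differences recomputed under alternatives, 727 kept their direction and their side of the threshold. A call was lost in 32 and gained in 25, and 7 changed sign. Besides single genes, these include the lowest and highest of the 10 genes, whichever they were, between low-yield and other mutants and in the interaction. Those extremes all kept direction and side. The 7 genes called over both groups (Slc2a1, Hk2, Pfkl, Pfkm, Pkm, Pklr and Ldha) were called in all 21 alternatives run there, and Hk1 gained a call in 1. The count of the 10 genes called in mutants of group 2 was 2, and became 5 with DESeq2 and with limma voom, where calls among all genes rose from 942 to 1452 and 2000, 1 with the older quasi-likelihood mode and 1 in a fit on the 6 compared libraries; leaving out 1 library gave 1 to 5, with 5 on leaving out wildtype replicate 1. In low-yield mutants the count was 5 and fell to between 2 and 3 on leaving out wildtype replicate 2 or 3 or any low-yield replicate. The replicate block gave 8 of the 10 genes in group 1, 3 in mutants of group 2 (Pfkm added), 5 in low-yield mutants and 7 over both groups. The Pfkl to Pfkm ratio differed by 0.20 with low-yield mutants in place of mutants (adjusted p = 0.02), and by 0.073 to 0.20 on leaving out 1 library, where it passed without mutant replicate 1 of group 2 (adjusted p = 0.04). Signs changed for G6pdx in group 1 (-0.061 to 0.014 on leaving out 1 library) and in mutants of group 2 (0.011 by library totals, -0.062 to 0.029 on leaving out 1 library), and for Bpgm in low-yield mutants (-0.0064 with limma voom, -0.045 to 0.14 on leaving out 1 library); none of these values passed. The cause of these changes was not tested. Calls among all genes in group 1 were 1766, with 753 as the lowest and 2863 as the highest count under an alternative. For mutants of group 2 the lowest count was 425. For low-yield mutants they were 1884, with 900 and 3399. Low-yield against other mutants gave 6 calls with DESeq2, 4 with voom and 22 without low-yield replicate 3, and the interaction gave 13 with DESeq2 and 5 with the block, against 3.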
